A study of Mus musculus with 19 samples.

Results

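Mouse miR-208a, miR-208b and miR-499 are miRNAs that lie inside myosin heavy chain genes. Every array entry under these names, with either arm of the hairpin, was taken, which gave 6 of the 1079 mouse miRNAs on the array: mmu-miR-208a-3p, mmu-miR-208a-5p, mmu-miR-208b-3p, mmu-miR-208b-5p, mmu-miR-499-3p and mmu-miR-499-5p, where mmu stands for mouse and is left out from here on. Mature miRNAs had been measured on 19 single-colour Agilent arrays in 3 tissues of inbred mice that differ in how far they run on a wheel, the high-active C57L/J and the low-active C3H/HeJ strain. The tissues were the soleus, a slow hindlimb muscle, the extensor digitorum longus (EDL), a fast hindlimb muscle, and the nucleus accumbens, a brain region of the reward circuit. All mice were untreated males of 9 weeks, housed singly for their last week with a wheel that could not turn, so the strains were compared before any running.

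The arrays held soleus of 4 high-active and 2 low-active mice, EDL of 2 high-active and 4 low-active mice, and nucleus accumbens of 4 high-active and 3 low-active mice. These came from 8 animals, since a mouse could give several tissues. High-active mice carried the numbers 223, 224, 225 and 227, and low-active mice 194, 195, 196 and 197. Each strain is 1 inbred line, so a strain difference cannot be told apart from any other difference between these lines, and the p-values measure only the spread between these few mice. The series' design text states that no biological replicates were used, while the mouse numbers in the labels differ within each group. Whole muscles were used, so fewer fibres of a type and less miRNA per fibre cannot be told apart.

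A myosin heavy chain is the motor protein of the muscle filament, and the heavy chain a fibre makes sets how fast it contracts. Myh7 encodes the slow heavy chain of type I fibres and of the heart, Myh6 the alpha heavy chain that dominates the adult mouse heart, and Myh7b a related slow-type myosin. As background, miR-208a, miR-208b and miR-499 sit in introns of these genes and are made along with the host transcript. In mice miR-208b and miR-499 are known to repress Sox6, a repressor of slow-fibre genes.

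RefSeq places the members inside those 3 genes on the GRCm38.p6 build. Both miR-208b arms lie within Myh7 (chr14:54970684-54994626) and both miR-208a arms within Myh6 (chr14:54941921-54968017), on the minus strand. Both miR-499 arms lie within Myh7b (chr2:155611243-155634307), on the plus strand. All 6 names matched a RefSeq mature sequence. The mature RNAs are given 5′ to 3′ with the seed, bases 2 to 8, in capitals, because the shared seed is what joins the families.
miR-208b-3p (chr14:54975710-54975731): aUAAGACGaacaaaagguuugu
miR-208a-3p (chr14:54949072-54949093): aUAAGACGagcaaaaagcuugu
miR-499-5p (chr2:155622893-155622913): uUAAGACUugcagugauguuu
miR-208b-5p (chr14:54975745-54975766): aAGCUUUUugcucgcguuaugu
miR-208a-5p (chr14:54949107-54949128): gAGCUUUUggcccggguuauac
miR-499-3p (chr2:155622929-155622951): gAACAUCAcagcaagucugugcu
The sequences of miR-208b-3p and miR-208a-3p share the whole seed, and no other name among 1679 mature names in the table has it. Bases 2 to 7, UAAGAC, are shared by these 2 and miR-499-5p, and by no further name in the table. Counted from 1 at the 5′ end, miR-208a-3p and miR-208b-3p differ at 3 of 22 bases (G10A, A16G and C18U, with the miR-208a-3p base first). The 5p arms of miR-208a and miR-208b share a different seed, and miR-499-3p has its own.

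The hairpins of the 2 arms that were detected show which side of each stem they come from, with the detected arm in capitals.
Mir208b (chr14:54975700-54975776): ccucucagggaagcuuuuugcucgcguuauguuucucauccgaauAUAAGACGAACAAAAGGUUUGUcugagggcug
Mir499 (chr2:155622880-155622958): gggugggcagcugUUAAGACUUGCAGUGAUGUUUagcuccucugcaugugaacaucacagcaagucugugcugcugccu
In the Mir208b hairpin of 77 bases the detected arm is bases 46 to 67, and in the Mir499 hairpin of 79 bases it is bases 14 to 34.

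Levels are log2 of a miRNA's scaled probe intensity, with all 19 arrays on 1 scale. Signals below 23.3 intensity units, the typical lowest signal of a detected probe, were set to that floor, which is 4.54 on the log2 scale. A miRNA was counted as detected on an array where most spots of one of its probes were well above background. Levels of different miRNAs are not compared, since probes differ in brightness.

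Of the 6 members, 1 arm each of miR-208b and miR-499 was detected, on muscle arrays and on none of the 7 brain arrays. The 3p arm of miR-208b was detected on 6 of 19 arrays, those of the 6 soleus muscles. The 5p arm of miR-499 was detected on 11 of 19, in all 6 soleus muscles and in 5 of 6 EDL muscles. Neither was detected in any of the 7 nucleus accumbens samples, where all levels stood at the floor.

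The remaining 4 arms were detected on 0 of 19 arrays and stood at the floor throughout. Their scaled intensities ran between -9.59 and -1.48 for miR-208a-3p, between 2.80 and 13.4 for miR-208a-5p, between -6.90 and -1.57 for miR-208b-5p and between -9.13 and -0.677 for miR-499-3p. In the soleus, miR-208a-3p read between -4.49 and -1.54 units on the same 6 arrays where miR-208b-3p read between 174 and 653 units. Thus the probes for these near-identical RNAs gave separate readings, and the opposite arms of the detected hairpins gave none above background. As miR-208a-3p was detected nowhere, whether its probes work, or the miR-208b-3p probes also bind it, cannot be told here. An undetected arm has only a bound on this platform, so low levels of these 4 are not excluded.

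**Figure D1:**
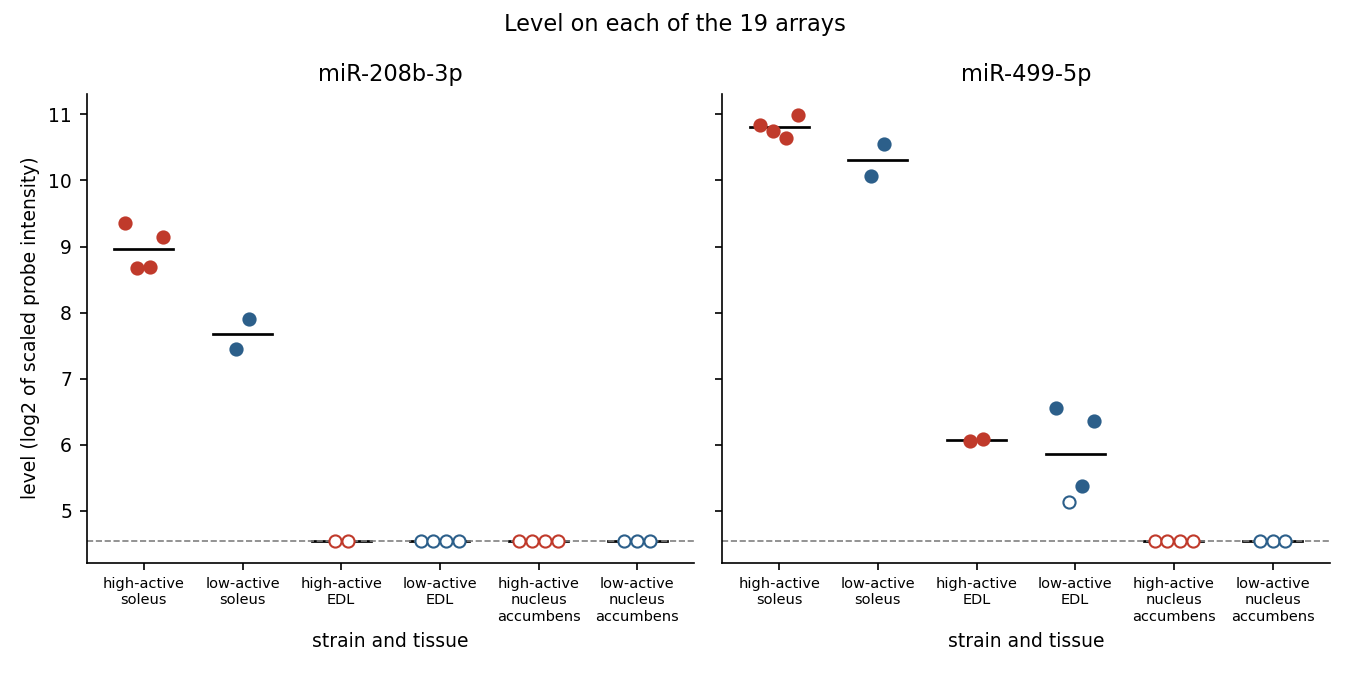
Log2 level of miR-208b-3p and miR-499-5p on each of the 19 arrays, by strain and tissue, with 1 point per array and a line at each group mean. Filled points were well above background, open points were not, and the dashed line is the floor of 4.54. Both miRNAs are highest in soleus, and all 7 nucleus accumbens arrays lie on the floor.

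In the soleus, miR-208b-3p was high in both strains. Its log2 level was 9.35, 8.67, 8.68 and 9.15 in high-active mice 223, 224, 225 and 227, and 7.45 and 7.90 in low-active mice 194 and 195. The group means were 8.96 ± 0.34 (SD, n = 4) and 7.67 ± 0.32 (SD, n = 2). The lowest high-active soleus lay above both low-active ones, a separation that was not counted over other miRNAs. In all 6 EDL muscles its level was at the floor, with scaled intensities of 3.67 and 4.28 units in high-active EDL and between -3.61 and 2.59 units in low-active EDL.

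The level of miR-499-5p was high in every soleus and low but measurable in EDL. In the soleus it was 10.85, 10.75, 10.64 and 10.99 in high-active mice 223, 224, 225 and 227, and 10.07 and 10.55 in low-active mice 194 and 195, a mean of 10.81 ± 0.15 (SD, n = 4) and 10.31 ± 0.34 (SD, n = 2). In the EDL it was 6.06 and 6.08 in high-active mice 225 and 227, and 6.55, 5.14, 5.37 and 6.36 in low-active mice 194, 195, 196 and 197, a mean of 6.07 ± 0.02 (SD, n = 2) and 5.86 ± 0.71 (SD, n = 4). The soleus and EDL values did not overlap, a separation that was not counted over other miRNAs. The high-active EDL values lay inside the low-active range. The lowest EDL, of low-active mouse 195, was the 1 EDL array on which miR-499-5p was not well above background. That array was also the dimmest of all 19, with 242 miRNAs detected and an unscaled 75th percentile of 658 units, against at most 392 miRNAs and 2209 units elsewhere.

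Ordered by mean level, miR-499-5p ran from high-active soleus through low-active soleus, high-active EDL and low-active EDL to the nucleus accumbens. Within each muscle the 2 strains were neighbours whose difference did not pass the test. In low-active EDL miR-499-5p was detected on 3 of 4 arrays. On the array of mouse 195 it stood above the floor only once scaled. Unscaled it read 15.5 units there, where the accumbens arrays read between 6.29 and 16.4 units. For miR-208b-3p the order was high-active soleus, low-active soleus and then the remaining 4 groups at the floor, with no order among them.

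The first comparison asked how slow soleus differed from fast EDL, in a limma fit of the 12 muscle arrays over 309 miRNAs detected on at least 6 of them. The 2 detected members rose in soleus more than any of the 307 others tested. By the fit miR-499-5p was 4.60 ± 0.26 higher (SE, log2), a 24.2-fold difference (adjusted p = 1.54e-07). The fitted difference of miR-208b-3p was 3.78 ± 0.16 (SE, log2, adjusted p = 1.43e-08), and set against the detection limit of the EDL arrays it was at least 3.41 higher in soleus on the log2 scale. Such a bound divides the mean of the detected group by the lowest signal of a detected probe on each array of the other group, or by the floor where that is higher. The test called 60 of 309 miRNAs (19.4%), of which 22 were higher (7.12%) and 38 lower (12.3%) in soleus, so 2 of these 22 were the members. As miR-208b-3p passed the detection filter through its 6 soleus arrays alone, a difference was built into its being tested, and its SE holds no spread from EDL because all EDL values are the floor.

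Next in size was miR-206-3p, the skeletal-muscle miRNA also enriched in slow muscle, at 3.30 ± 0.25 (SE, log2, 9.86-fold, adjusted p = 2.90e-06). Its log2 level was between 15.02 and 15.90 in high-active and between 14.44 and 14.86 in low-active soleus, against between 11.57 and 11.69 in high-active and between 11.28 and 12.71 in low-active EDL. No other miRNA of the 309 reached a difference of 2 on the log2 scale that passed the test. The 3 largest falls in soleus were smaller, at -1.67 for miR-193a-5p, -1.35 for miR-193a-3p and -1.23 for miR-3107-5p (log2). The plot of the soleus against EDL difference shows these 3 rises standing apart from the body of miRNAs.

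**Figure D2:**
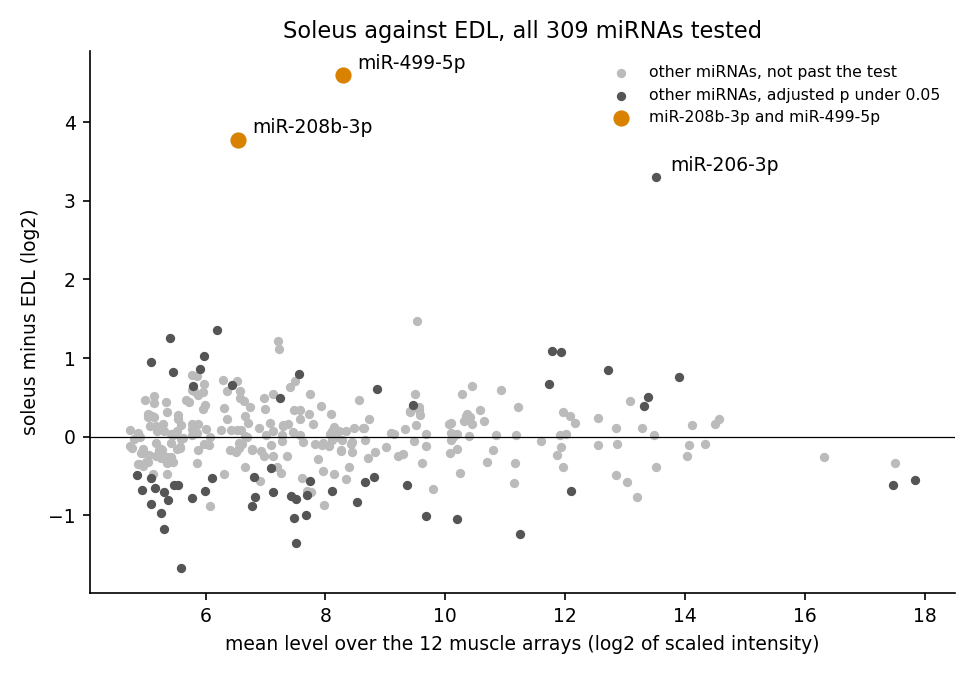
Soleus minus EDL difference (log2, both strains, vertical axis) against the mean log2 level over the 12 muscle arrays (horizontal axis) for the 309 miRNAs tested, 1 point per miRNA. Dark points have an adjusted p below 0.05, and the orange points are miR-208b-3p and miR-499-5p, which do too. The points for miR-499-5p at 4.60 and miR-208b-3p at 3.78 are the highest, followed by miR-206-3p at 3.30.

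Both strains showed the difference on their own. In high-active mice miR-499-5p was 4.74 ± 0.36 higher in soleus (SE, log2, adjusted p = 4.91e-06) and in low-active mice 4.46 ± 0.36 higher (adjusted p = 9.43e-06), by limma. For miR-208b-3p the differences were 4.42 ± 0.23 (adjusted p = 1.18e-07) in high-active and 3.13 ± 0.23 (adjusted p = 5.25e-06) in low-active mice, or at least 17.3-fold and at least 6.56-fold. Its p-values are no support, since its EDL values were all the floor and its soleus arrays alone brought it into the test. The test called 32 of 309 miRNAs in high-active mice (10.4%), 13 higher (4.21%) and 19 lower (6.15%) in soleus. In low-active mice it called 9 (2.91%), 5 higher (1.62%) and 4 lower (1.29%). Both detected members were among the higher ones each time, which for miR-208b-3p was built in.

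Of the 8 mice, 4 gave both muscles, 225 and 227 of the high-active and 194 and 195 of the low-active strain. The soleus exceeded the EDL of the same mouse for miR-499-5p by 4.58 and 4.91 (log2) in mice 225 and 227, and by 3.52 and 5.41 in mice 194 and 195. The 5.41 of mouse 195 was taken against an EDL signal that was not well above background. For miR-208b-3p, whose EDL values were at the floor, the soleus stood 4.14 and 4.61 above it in mice 225 and 227, and 2.91 and 3.36 in mice 194 and 195. All 4 animals moved the same way for both miRNAs. With mouse as a fixed block, which rests on these 4 animals, the differences were 4.61 for miR-499-5p (adjusted p = 8.87e-05) and 3.76 for miR-208b-3p (adjusted p = 0.000162) by limma, while the count of miRNAs past the test fell to 17 of 309. The p-value of miR-208b-3p again rests on EDL values at the floor.

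**Figure D3:**
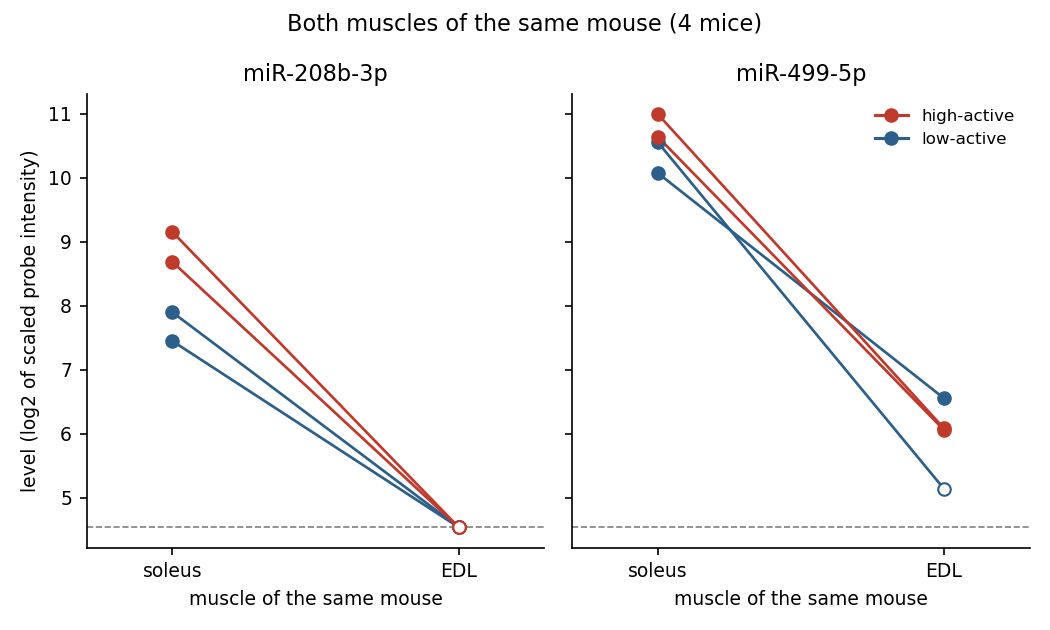
Log2 level of miR-208b-3p and miR-499-5p in the soleus and EDL of the 4 mice that gave both muscles, each line 1 mouse, coloured by strain. Open points were not well above background, and the dashed line is the floor of 4.54. Every line falls toward EDL, and for miR-208b-3p every EDL point is on the floor.

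The arrays lay on 3 slides, each holding both muscles. Within slides 1, 2 and 3 the soleus minus EDL difference was 4.99, 4.64 and 4.64 (log2) for miR-499-5p and 3.75, 3.88 and 4.81 for miR-208b-3p, where slide 3 held soleus of 1 high-active mouse only. Slide 2 held EDL of low-active mice 194 and 196 only, and soleus of high-active mice 224 and 227 and low-active mouse 194. The values of slides 2 and 3 therefore mix strain with muscle. With slide as a block the differences were 4.64 and 3.84, both past the test, which for miR-208b-3p rests on EDL values at the floor. Each detected member has 2 probes, which differed on detected arrays by 0.02 to 0.06 (log2) for miR-208b-3p and by 0.11 to 0.27 for miR-499-5p. The 2 probes gave soleus minus EDL differences of 3.78 and 3.77 for miR-208b-3p and of 4.60 and 4.56 for miR-499-5p. A probe's choice therefore moved neither value by more than its SE.

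How many miRNAs pass depends on the scale. Without scaling the test called 11 higher and 0 lower in soleus, and with arrays scaled by miR-1a-3p, miR-133a-3p and miR-133b-3p, chosen after seeing the data, it called 98 higher and 8 lower. These settings moved the median difference over all miRNAs to 0.25 and 0.48 (log2), against 0.02 as reported. The members stood well above those medians, with miR-499-5p at 4.76 and 5.09 and miR-208b-3p at 3.72 and 3.78.

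Soleus and EDL differed in other miRNAs of muscle and of the cells around its fibres. Of the muscle list, 7 of 8 miRNAs were on the array under the listed names, and entries under another name were not looked for. The 6 tested held 1 that rose in soleus (miR-206-3p) and 2 that fell, miR-133a-3p by 0.61 and miR-133b-3p, the brightest, by 0.55 (log2). The list's median was -0.47, against 0.02 over all miRNAs. Summed intensity of the list was between 474813 and 637019 units in soleus against between 531817 and 856811 units in EDL, with overlapping ranges. All 6 list members detected were so on every muscle array, which fits the label of both tissues as muscle.

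Among miRNAs of other cell types, miR-451a of red cells rose in soleus by 1.07 ± 0.24 (SE, log2, adjusted p = 0.0109) and miR-126-3p of blood vessels by 0.40 ± 0.13 (adjusted p = 0.0453), both by limma. The red cell list, with 3 of 3 on the array, summed to between 4487 and 7602 units in soleus against between 1642 and 4291 units in EDL, and 2 of its miRNAs were tested with 1 higher. The vascular list, with 3 of 4 on the array under the listed names, summed to between 12721 and 15926 units against between 8328 and 12251 units. Of its 3 tested, 1 was higher. Among those counted, the miRNAs that did not pass were miR-144-3p at 0.46 (log2, adjusted p = 0.566 by limma), miR-126-5p at 0.31 (adjusted p = 0.551) and miR-143-3p at 0.01 (adjusted p = 0.987). The remaining vascular miRNA, miR-145-5p, is on the array as miR-145a-5p and was left out of the list's sums and counts. Its difference was -0.25 (log2, adjusted p = 0.457 by limma), the other way from miR-126-3p. The part of these cell types in the members' difference was not tested.

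No miRNA of the brain, leukocyte or epithelial lists passed the test between the muscles, among the 1, 3 and 2 tested. Their brightest were miR-128-3p at 0.59 (log2, adjusted p = 0.0829), miR-150-5p at 0.03 (adjusted p = 0.935) and miR-203-3p at 0.44 (adjusted p = 0.315), by limma. The neuronal miR-124-3p was at the floor on all 12 muscle arrays. The summed intensity in soleus against EDL was between 1773 and 2912 units against between 923 and 1987 units for brain, between 1429 and 2112 units against between 1182 and 1804 units for leukocyte, and between 0 and 156 units against between 0 and 279 units for epithelial miRNAs.

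The next question was whether the strains differed within a muscle, tested among 342 miRNAs in soleus and 330 in EDL, each detected on at least 2 arrays. Neither member passed in soleus, and miR-499-5p, the 1 member tested in EDL, did not pass there. In the soleus miR-208b-3p was 1.29 ± 0.26 higher in high-active mice (SE, log2, 2.45-fold, 95% interval 0.67 to 1.91), with an unadjusted p of 0.00188 and an adjusted p of 0.0715 by limma. High-active values exceeded low-active values in all pairs of mice. The difference of miR-499-5p was 0.49 ± 0.19 (SE, log2, 1.41-fold, 95% interval 0.03 to 0.96, adjusted p = 0.242), with no overlap between the groups either. How many of the 342 miRNAs also separate the groups was not counted, so no weight is placed on this separation. The test called 7 of 342 miRNAs in soleus (2.05%), 3 higher (0.877%) and 4 lower (1.17%) in high-active mice. That split moved with the scale, to 1 higher and 51 lower without scaling and to 9 higher and 3 lower with the percentile over all probes.

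In the EDL miR-499-5p differed by 0.21 ± 0.43 (SE, log2, 95% interval -0.77 to 1.20, adjusted p = 0.969), where the test called 1 of 330 miRNAs (0.303%). The interval leaves room for more than a doubling in high-active EDL. Leaving out low-active mouse 195, the dimmest array, moved it to -0.025. The EDL level of miR-208b-3p was not tested, being at the floor in both strains.

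**Figure D4:**
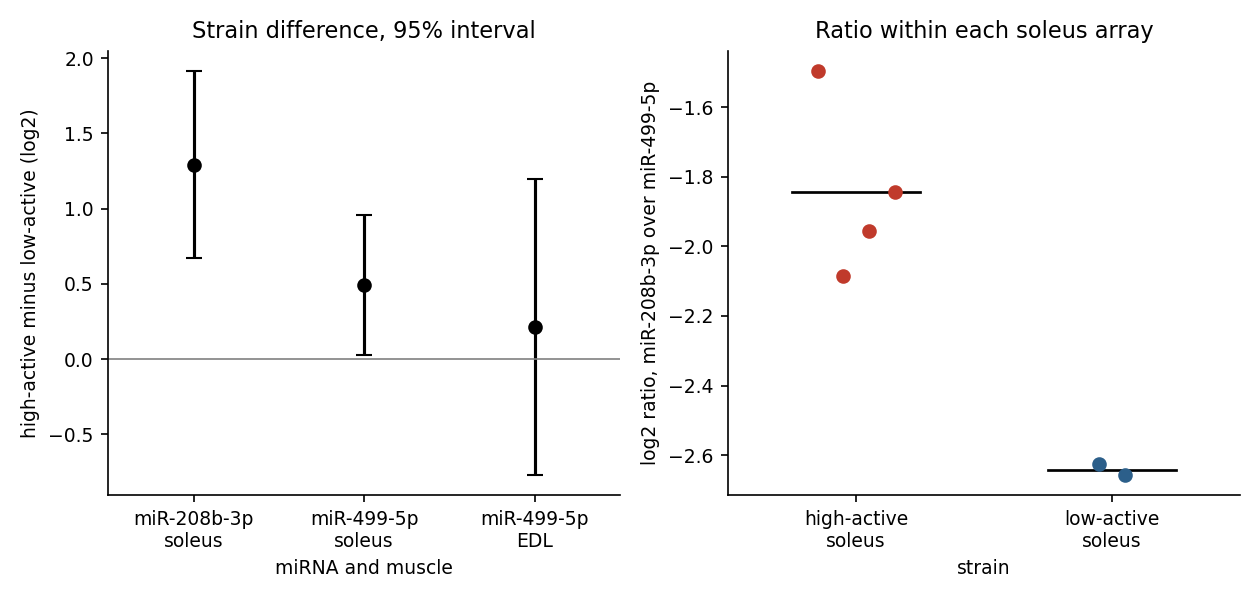
Left, high-active minus low-active difference (log2) of miR-208b-3p in soleus and of miR-499-5p in soleus and EDL, with its 95% interval. Right, the log2 ratio of miR-208b-3p to miR-499-5p on each soleus array, high-active (n = 4) and low-active (n = 2), with a line at the mean. The interval of miR-208b-3p lies between 0.67 and 1.91. The ratios of the groups do not overlap, which was not counted over other pairs of miRNAs.

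The strain difference of miR-208b-3p in soleus kept its sign under each alternative tried, but its side of the threshold varied. It passed when the 4 muscle groups were fitted together, which gave the same 1.29 with an adjusted p of 0.00711, when arrays were scaled by the percentile over all probes (1.60, adjusted p = 0.0215), with normexp background correction (1.07, adjusted p = 0.0160) and with the scanner software's own signal (1.28, adjusted p = 0.0438), all by limma. The fit of the 4 groups together took in 6 EDL arrays at the floor, which have no spread, so its smaller SE of 0.21, against 0.26, came with arrays on which miR-208b-3p was not detected. Over the alternatives refitted with all arrays the adjusted p ran between 0.00711 and 0.591. Leaving out 1 soleus array at a time gave differences between 1.07 and 1.52, none past the test.

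**Figure D5:**
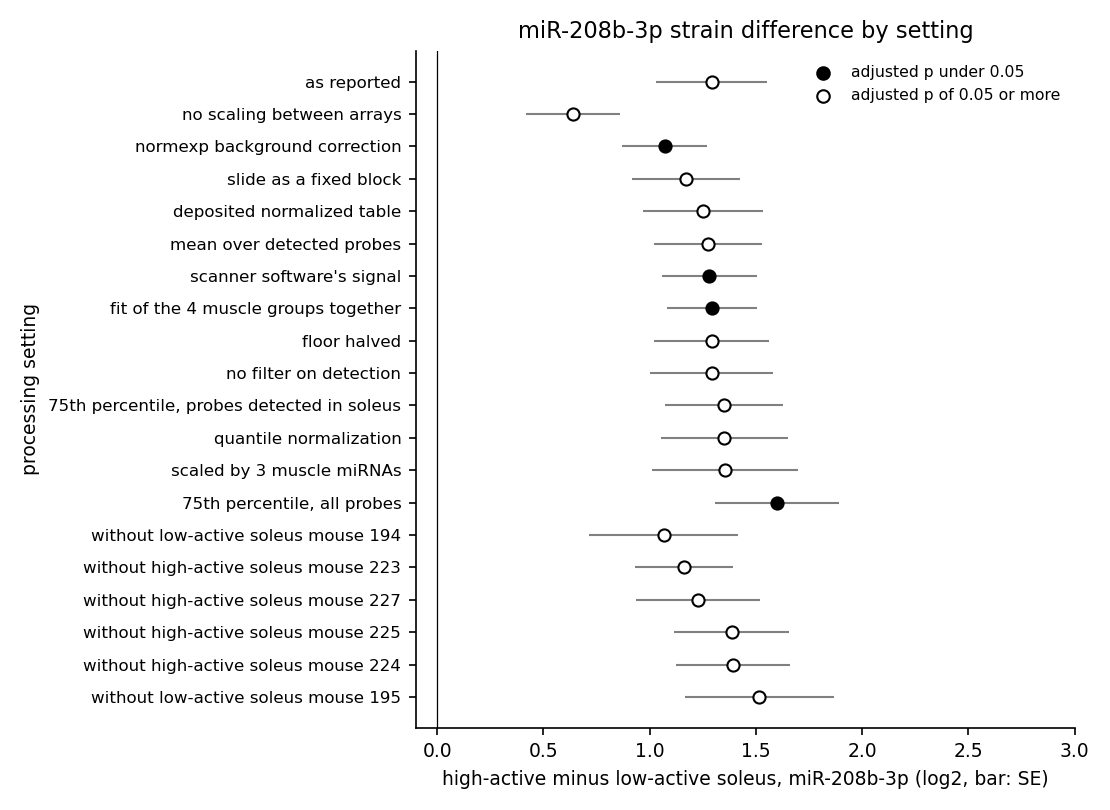
High-active minus low-active difference of miR-208b-3p in soleus (log2, horizontal axis, bars are the SE) under each processing setting, and with 1 mouse left out at a time. Filled points have an adjusted p under 0.05. All values lie above 0, between 0.64 and 1.60, and 4 settings pass.

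Array brightness moved with strain in the soleus. The unscaled 75th percentile was between 856 and 1440 units, with 266 to 315 miRNAs detected, on high-active arrays, against 1776 and 1786 units and 342 and 346 miRNAs on low-active arrays. Without scaling the median over all miRNAs was -0.68 (log2), miR-208b-3p was 0.64 higher and miR-499-5p was at -0.16, against a median of -0.09, 1.29 and 0.49 with scaling. Thus the sign of miR-499-5p rested on the scaling, and that of miR-208b-3p did not. Both members stood above the median of all miRNAs either way, which is no support, since setting unscaled values against their median nearly repeats the scaling. On the 2 slides with both strains, miR-208b-3p was 0.79 and 1.46 higher in high-active soleus and miR-499-5p 0.085 and 0.80 higher, with 1 or 2 arrays on each side.

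A ratio taken within an array needs no scale between arrays. The log2 ratio of miR-208b-3p to miR-499-5p was -1.50, -2.08, -1.96 and -1.84 in soleus of high-active mice 223, 224, 225 and 227, and -2.63 and -2.66 in low-active mice 194 and 195. Only the change between arrays has meaning here, as the probes differ in brightness. The ratio was 0.80 higher in high-active mice without overlap, and an exact two-sided permutation test gave p = 0.0667, the smallest that 4 mice against 2 allow. That p restates the lack of overlap, which was not counted over other pairs of miRNAs, so no weight is placed on it.

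No miRNA of the muscle list passed the test between strains. In soleus 0 of its 6 tested miRNAs passed, with a median of -0.05 (log2), and in EDL 0 of 6 with a median of 0.24, against -0.09 and 0.03 over all miRNAs. Its brightest, miR-133b-3p, differed by -0.07 ± 0.19 (SE, log2) in soleus and by 0.24 ± 0.29 in EDL. In soleus miR-206-3p was 0.83 ± 0.27 higher in high-active mice (SE, log2, adjusted p = 0.201 by limma). For the brain, red cell, leukocyte, vascular and epithelial lists, as matched by name, 0 miRNAs passed between strains in either muscle, among 2, 2, 3, 3 and 2 tested in soleus and 1, 2, 3, 3 and 2 in EDL.

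Whether the strain difference was larger in soleus than in EDL was tested as an interaction in the 12-array fit. For miR-208b-3p it was 1.29 ± 0.32 (SE, log2, 95% interval 0.59 to 1.99, adjusted p = 0.433), which equals the soleus difference because EDL is at the floor in both strains. Its SE and interval hold no spread from EDL, so they cannot tell whether the strain difference was larger in soleus. For miR-499-5p it was 0.28 ± 0.51 (SE, log2, 95% interval -0.84 to 1.40, adjusted p = 0.990). By limma the test called 0 of 309 miRNAs (0%), with 12 at an unadjusted p under 0.05, while 2 were called with the scanner software's signal and 2 without the detection filter.

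Against the brain, both members gave bounds. In soleus miR-499-5p exceeded nucleus accumbens at least 77.1-fold in high-active mice and at least 50.8-fold in low-active mice, and miR-208b-3p at least 21.5-fold and at least 8.13-fold. In EDL miR-499-5p exceeded it at least 2.89-fold in high-active mice, measured on 2 of 2 arrays. In low-active EDL the same calculation gave 2.31-fold over 4 arrays, but miR-499-5p was detected on only 3 of them, so this is no strict bound. The accumbens arrays held all 8 brain miRNAs of the list at a sum of between 89568 and 131616 units. Strains were not tested there, since no member was detected.

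The miRNAs whose levels followed the members most closely over the 12 muscle arrays were named by Pearson correlation among 307 others, as a description with no test. For miR-499-5p they were miR-27b-3p (r = 0.970), miR-206-3p (0.959), miR-192-5p (0.945), miR-24-2-5p (0.914) and miR-23a-3p (0.910). For miR-208b-3p they were miR-206-3p (r = 0.967), miR-23a-3p (0.943), miR-27b-3p (0.939), miR-132-3p (0.934) and miR-192-5p (0.921). Between the 2 members r was 0.977. The arrays share 2 tissues and 8 mice, so these values cannot be told apart from the soleus against EDL contrast, in which all 6 of these miRNAs passed, with differences between 0.68 and 3.30 (log2).

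The promoters of the host genes Myh7 and Myh7b are shown because the 2 detected members were both higher in soleus. Each window holds 250 bases before and 50 after the annotated gene start (RefSeq, GRCm38.p6), with matches to the E-box (CANNTG, bound by the MyoD family) and to the MCAT element (CATTCC, bound by TEAD factors) on either strand in capitals.
Myh7 (chr14:54994577-54994876, minus strand): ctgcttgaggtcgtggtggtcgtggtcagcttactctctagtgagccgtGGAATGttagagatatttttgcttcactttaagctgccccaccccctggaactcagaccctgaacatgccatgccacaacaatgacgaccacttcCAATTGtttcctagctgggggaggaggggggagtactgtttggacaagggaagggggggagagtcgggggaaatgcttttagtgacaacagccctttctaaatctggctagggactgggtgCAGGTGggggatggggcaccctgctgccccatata
Myh7b (chr2:155610993-155611292, plus strand): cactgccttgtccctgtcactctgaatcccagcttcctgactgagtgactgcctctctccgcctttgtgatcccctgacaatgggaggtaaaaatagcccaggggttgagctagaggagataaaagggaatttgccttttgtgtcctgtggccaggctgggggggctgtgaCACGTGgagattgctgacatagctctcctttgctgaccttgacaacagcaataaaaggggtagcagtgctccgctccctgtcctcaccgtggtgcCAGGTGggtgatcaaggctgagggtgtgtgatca
Each window held 2 E-box matches. At least 1 was held by 72.3% of 32851 promoter windows of this length, and the share with 2 or more was not counted. The Myh7 window held 1 MCAT match and the Myh7b window 0, against 14.7% of windows with at least 1. The 2 motifs do not overlap in these windows, and a match is a description of letters only.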

How the data were processed

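Each array's scanner file was deposited as Agilent Feature Extraction 10.7.1.1 wrote it, with spot intensity values from which the authors' software had subtracted background, on no common scale. The deposited table of the series holds log2 values that the authors shifted per array within a tissue and that, as the values show, are centred per miRNA. The percentile they shifted by is not given in the sources used here, its column medians ran between -0.396 and 0.754, and the table served as an alternative. Arrays the authors dismissed for poor signal were not analysed here. Control and outlier spots were left out, the remaining spots of a probe were averaged (45440 spots per array, none saturated), and each array was divided by its 75th percentile, taken over the 328 probes that every one of the 19 arrays detected, floored at 23.3 units and taken to log2. A miRNA took its brightest probe. Groups were compared with limma 3.58.1 in R 4.3.3 (lmFit, eBayes, Benjamini-Hochberg over all miRNAs tested, adjusted p under 0.05), and the within-array ratio with an exact permutation test. With 1 array left out, the detection filter for soleus against EDL was 5 arrays. Precision was limited by how many arrays each group had.

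Named miRNAs were all members, the 3 largest changes in each direction between the muscles, the 5 most like each detected member and the brightest of each list (muscle, brain, red cell, leukocyte, vascular and epithelial). The values of miR-206-3p and miR-133a-3p by array, of miR-124-3p, and of miR-144-3p, miR-126-5p, miR-143-3p and miR-145a-5p were named after being seen. The members, lists and tests were chosen with earlier results of these data known. The fits were tested on simulated arrays with known changes and independent normal spread. These had no floor and no shared mice, so they do not cover miR-208b-3p in EDL or muscles of the same mouse. Normexp used median spot and background signals. Mouse numbers pair the muscles, since 4 mice gave both, and the deviations of a mouse's 2 muscles from their group means correlated across 309 miRNAs at 0.22, 0.53, -0.49 and -0.12 in mice 194, 195, 225 and 227. With mouse as a random block the correlation within mice was -0.058.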

Additional observations from a re-analysis of the deposited data

Results flagged for a closer look

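One result lay outside the measurements compared above. The scanner software gives its own signal and detection call per miRNA, and it called miR-499-5p detected on 12 of 19 arrays, 1 more than the spots did. The extra array was the nucleus accumbens of low-active mouse 197, with a software signal of 11.1 units, while the remaining 6 accumbens arrays were called not detected. Most spots of miR-499-5p on that array were not well above background, and its scaled intensity was 16.1 units, under the floor. On the same array miR-133a-3p read 638 units, against between 109 and 140 units on the remaining accumbens arrays, and miR-206-3p read 83.1 units and was well above background there alone among accumbens arrays. What these readings share was not tested.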

How the results depend on the processing

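The soleus minus EDL differences of miR-208b-3p and miR-499-5p passed the test under every alternative refitted, in both strains together and in each. For miR-208b-3p, at or near background in all EDL muscles and tested through its soleus arrays alone, this passing is no sign of stability. In both strains together they ran between 1.69 (normexp) and 5.29 (software signal) for miR-208b-3p and between 3.15 and 5.09 for miR-499-5p (log2). Within a strain they ran between 1.14 (low-active, normexp) and 5.93 (high-active, software signal) for miR-208b-3p and between 2.91 and 5.37 for miR-499-5p. With each array left out they ran between 3.67 and 3.89 and between 4.48 and 4.72. Within slide 3 miR-208b-3p was 4.81, against 3.78. The replicate block changed no call of a member: with mouse as a random block the differences were 3.78 and 4.60, and with mouse as a fixed block 3.76 and 4.61. The strain difference of miR-208b-3p in soleus passed the test with the percentile over all probes (1.60), the fit of 4 groups together (1.29), normexp (1.07) and the software signal (1.28), and was 0.79 within slide 1. That of miR-499-5p turned to -0.16 without scaling, and ran between 0.25 and 0.73 with each array left out. In EDL miR-499-5p turned to -0.034 with normexp and to -0.30 within slide 3, was 0.94 within slide 1, 0.61 ± 1.11 (SE) with the software signal and 1.82 ± 2.27 (SE) with the deposited table, and ran between -0.025 (without low-active mouse 195) and 0.45 with each array left out. The interaction of miR-499-5p turned to -0.27 without scaling and to -0.098 with the software signal. None of these reversed values passed a test, and the causes were not tested. Counts of miRNAs past the test moved more: between 11 and 106 for soleus against EDL (60 as reported, 38 without the detection filter, 23 with normexp), between 3 and 75 in high-active (32) and 4 and 28 in low-active mice (9), between 2 and 52 for strain in soleus (7) and between 0 and 9 in EDL (1). For soleus against EDL the count was 33 or 37 without EDL of high-active mouse 225 or 227, 99 without EDL of low-active mouse 195, and 36 or 24 without soleus of low-active mouse 194 or 195. In high-active mice alone it ran between 4 and 57 (4 and 5 without EDL of mouse 225 or 227, 15, 14 and 20 without soleus of mouse 224, 227 or 223, and 57 without EDL of low-active mouse 195), and in low-active mice alone between 3 and 30 (4 and 3 without soleus of mouse 194 or 195, 30 without EDL of mouse 195, and 5 without EDL of mouse 196 or 197 or soleus of high-active mouse 227). For strain in soleus it was 1 without high-active mouse 225 or 227 and 0 without low-active mouse 194 or 195. For strain in EDL it was 0 without high-active mouse 225 or 227 or low-active mouse 194, and 4 without low-active mouse 197. Signal near background limits miR-208b-3p in EDL and both members in the brain to bounds.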
